A study of Mus musculus with 12 samples.

Results

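The promoters of 10 genes that hold RNA polymerase II (Pol II) near the start of genes or release it into the gene body were followed through prophase I of mouse meiosis. The genes were chosen by function, with earlier results of these data known. They encode the subunits of NELF (Nelfa, Nelfb, Nelfcd and Nelfe), of DSIF (Supt5 and Supt4a) and of P-TEFb (Cdk9, Ccnt1 and Ccnt2) and the P-TEFb inhibitor (Hexim1). The GENCODE M21 annotation holds 21938 protein-coding genes, these 10 among them. Their data are the dREG peaks whose edge lay under 1000 bp from a transcription start site (TSS) of the gene, called proximal peaks here, and there were 31 of these among 71107 peaks in leptonema/zygonema (LZ), 30 among 68352 in pachynema (P) and 23 among 38603 in diplonema (D). Proximal peaks of any gene made up 50.8%, 53.7% and 64.8% of these lists.

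The study profiled wild-type (WT) spermatocytes by leChRO-seq, in which engaged polymerases on chromatin extend their transcripts with biotin-labelled nucleotides so that nascent RNA can be purified and sequenced. Cells came from testes of adult mice, sorted by size and density at unit gravity with STAPUT, and the paper describes C57Bl/6J and DBA/2J backgrounds without saying which one each library came from. Each of the 3 groups has 4 libraries, 12 in all, and dREG, which finds the run-on signature of transcription initiation, was run once per substage on its pooled libraries. Each substage is thus 1 list with no replicate spread, no test between substages was possible, and a difference in read depth cannot be told apart from a difference between substages. The fractions were enriched and not pure: the study judged purity by staining for SYCP3 and γH2AX and names germ cells of earlier or later stages, mostly elongated spermatids, as what else they held.

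Soon after initiation, Pol II commonly stops a short way downstream of the start site, where DSIF and NELF hold it. P-TEFb, a kinase made of CDK9 and a T-type cyclin, phosphorylates DSIF, NELF and the tail of Pol II, after which NELF leaves and elongation begins. HEXIM1, bound to the 7SK RNA, keeps a part of P-TEFb inactive. The values below describe the promoters of the genes that encode these factors. They do not measure pausing itself, nor the amount of RNA or protein.

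The labels were checked against marker genes. For comparison, a proximal peak was called for 60.2% of all protein-coding genes in LZ, 60.5% in P and 51.6% in D. A proximal peak was called for 10 of 10 spermatocyte markers in LZ and in P and for 9 of 10 in D, where Stra8, a gene of meiotic entry, had none. Its highest proximal peak stood at list percentile 65.1 in LZ and 50.9 in P, where the list percentile is the rank of the score among all peaks of the same list, ties at their mean rank, and 100 is the highest. The ranks of the spermatocyte markers did not move one way. Ranks were taken by place among the genes called in every list. Of the 9 spermatocyte markers called in all 3 lists, 6 had a higher rank in P than in LZ (50.1% of all such genes). From P to D, 7 of them had a higher rank (52.8%). Sycp3, a protein of the synaptonemal complex axis, went from list percentile 81.9 in LZ to 94.3 in P and 98.8 in D, whereas Dmc1, the meiotic strand exchange recombinase, went from 86.3 to 68.2 and 46.8. Among the genes called in every list, Dmc1 went from percentile 50.5 in LZ to 14.2 in P and 16.1 in D. None of 4 Leydig cell markers (Cyp17a1, Star, Insl3 and Hsd3b1) and none of 3 blood and macrophage markers (Ptprc, Adgre1 and Hbb-bs) had a call in any list. Of 6 Sertoli cell markers, 2 were called in LZ, 4 in P and 3 in D, with Amh and Rhox5 called in none. Of 6 spermatid markers, 5 were called in each list and Tnp2 in none. The protamine genes Prm1 and Prm2 share 1 peak, at list percentile 58.7 in LZ, 48.8 in P and 71.7 in D, and Tnp1, a transition protein gene, stood at 79.2, 80.5 and 90.7. Acrv1 (97.6, 98.1 and 87.6) and Tssk6 (68.9, 76.6 and 23.9) were lower in D than in P.

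Promoter sequences of Supt4a, Hexim1, Nelfb and Ccnt1 are printed here, but not that of Nelfa, which had the largest rise of rank from P to D. The sequences come from the GRCm38 (mm10) reference genome of RefSeq, 250 bases before to 50 bases after a GENCODE start. They are written 5′ to 3′ on the strand of the gene, with the start base and matches to fixed motifs in capitals. The motifs were the GC box core GGGCGG, the CCAAT box, the ETS core GGAAGT, the CRE core TGACG and the MYB core CAGTTG, each on both strands, so that a match on the other strand stands as its reverse complement. Matches can overlap, as a GGGCGG match does with the ETS core in Ccnt1. Supt4a, on the plus strand at chr11:87737302-87737601, is shown because its promoter had the largest fall of rank from P to D among the 10 genes. It held 4 GGGCGG matches, 1 TGACG match and 1 GGAAGT match.
Supt4a: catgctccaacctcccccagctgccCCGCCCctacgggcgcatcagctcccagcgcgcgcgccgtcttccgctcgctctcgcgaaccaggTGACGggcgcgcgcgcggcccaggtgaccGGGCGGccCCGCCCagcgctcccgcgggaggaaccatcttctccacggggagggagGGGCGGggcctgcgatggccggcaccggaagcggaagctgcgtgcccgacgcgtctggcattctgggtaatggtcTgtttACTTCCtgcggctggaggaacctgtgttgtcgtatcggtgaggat
Hexim1, on the plus strand at chr11:103115981-103116280, is shown because it had the lowest rank of the 10 in P and a higher one in D. It held 2 CCAAT matches and 1 match each to the GC box, ETS and MYB cores.
Hexim1: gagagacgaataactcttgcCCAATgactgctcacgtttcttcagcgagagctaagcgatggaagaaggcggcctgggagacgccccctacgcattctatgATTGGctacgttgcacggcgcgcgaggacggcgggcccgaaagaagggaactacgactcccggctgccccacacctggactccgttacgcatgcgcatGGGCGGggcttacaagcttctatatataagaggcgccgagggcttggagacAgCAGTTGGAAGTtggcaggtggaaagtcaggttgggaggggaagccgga
Nelfb, on the minus strand at chr2:25211440-25211739, is shown at its most upstream protein-coding start, which lay inside a peak in LZ and P and in none in D. It held 2 GGGCGG matches.
Nelfb: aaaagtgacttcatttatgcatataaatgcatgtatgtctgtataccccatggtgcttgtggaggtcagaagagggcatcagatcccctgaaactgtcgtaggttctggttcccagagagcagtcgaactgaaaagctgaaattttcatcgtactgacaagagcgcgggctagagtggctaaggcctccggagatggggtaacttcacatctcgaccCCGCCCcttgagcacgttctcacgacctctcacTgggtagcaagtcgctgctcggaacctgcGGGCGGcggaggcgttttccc
Ccnt1 is shown at both of its protein-coding starts, because a proximal peak stayed at one and was not called at the other in D. The downstream start, on the minus strand at chr15:98567587-98567886, lay inside a peak in every list, and its window held 4 GGAAGT, 2 TGACG and 1 GGGCGG matches.
Ccnt1 downstream start: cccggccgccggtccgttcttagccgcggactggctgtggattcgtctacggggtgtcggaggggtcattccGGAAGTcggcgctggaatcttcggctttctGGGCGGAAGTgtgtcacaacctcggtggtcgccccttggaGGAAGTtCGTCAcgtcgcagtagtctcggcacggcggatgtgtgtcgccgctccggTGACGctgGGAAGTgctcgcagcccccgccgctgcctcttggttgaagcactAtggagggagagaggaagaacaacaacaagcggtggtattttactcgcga
The upstream start, at chr15:98570874-98571173, had 1 CAGTTG match, in its first transcribed bases, and no match to the other motifs.
Ccnt1 upstream start: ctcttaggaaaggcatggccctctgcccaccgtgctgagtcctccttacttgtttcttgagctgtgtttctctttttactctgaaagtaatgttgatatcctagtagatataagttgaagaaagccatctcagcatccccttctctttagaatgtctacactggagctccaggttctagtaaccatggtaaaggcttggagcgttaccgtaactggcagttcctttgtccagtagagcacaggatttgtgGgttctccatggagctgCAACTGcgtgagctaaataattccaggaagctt

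All 10 genes had a proximal peak in all 3 lists. The same held for 49.5% of protein-coding genes, with 60.2% called in LZ, 60.5% in P and 51.6% in D. A TSS lay inside a peak for 10 of the 10 genes in LZ and in P (56.5% and 56.8% of protein-coding genes) and for 9 in D (47.9%), the exception being Nelfb. The number of proximal peaks per gene ran from 1 to 5 in LZ and in P and from 1 to 4 in D. A single proximal peak was called for 1 gene in LZ and in P (Nelfcd in both) and for 3 genes in D (Nelfb, Nelfcd and Supt4a). Many of these peaks adjoined each other, since 15 of 21 neighbouring pairs in LZ, 16 of 20 in P and 11 of 13 in D were 20 bp apart, so a count of peaks is not a count of separate promoters. Of the 30 peaks in P, 29 overlapped a peak of LZ (96.7% against 85.7% for all proximal peaks in P) and 24 overlapped a peak of D (80% against 70.2%). Of the 23 peaks in D, 22 overlapped a peak of P (95.7% against 95.3% for all proximal peaks in D).

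**Figure D1:**
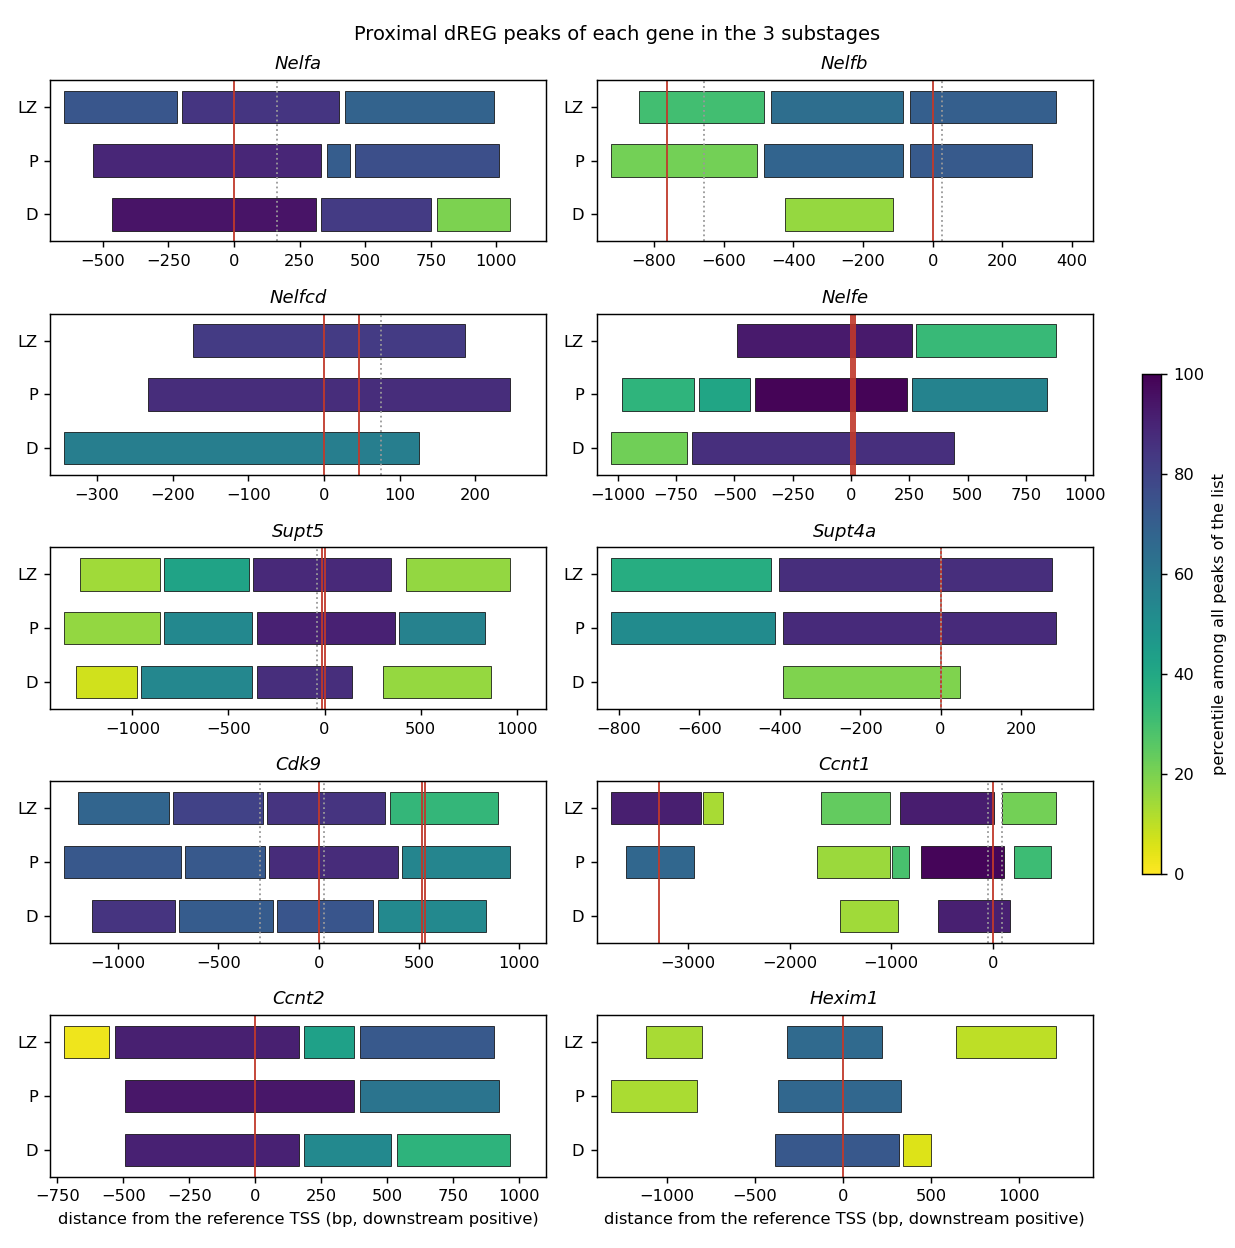
Proximal dREG peaks of the 10 genes in LZ, P and D (rows), drawn to scale against the distance in bp from a reference protein-coding TSS (each panel has its own range), with the direction of transcription to the right. Bars are peaks coloured by their percentile among all peaks of the list, solid red lines are protein-coding TSSs and dotted grey lines other TSSs. The peaks over the Nelfb starts drawn and over the upstream start of Ccnt1 are missing in D, and the Supt4a peak in D is in the low range of its list.

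Scores are given as deposited, and substages were compared only by rank, because dREG scores are not scaled between them. Besides the list percentile, a gene percentile was used, which is the rank of the highest proximal peak of a gene among the same 10851 genes called in all 3 lists. The members had a median list percentile of 86.0 in LZ, 88.7 in P and 85.6 in D, against 82.9, 84.6 and 78.6 over all protein-coding genes called. With lists of equal length, each limited to its 38603 highest-scoring peaks, it was 74.2, 80.1 and 85.6, and so higher in D than in P. The highest peak stood in the top 25% of its full list for 8 genes in LZ, 8 in P and 6 in D. The same held for 8553 of the 13203 protein-coding genes called in LZ, 8708 of 13272 in P and 6281 of 11328 in D. Over all protein-coding genes, called or not, these shares were 39%, 39.7% and 28.6%. With lists of equal length, Nelfa (71.4), Nelfcd (67.8) and Cdk9 (72.4) were no longer in the top 25% in LZ. The median gene percentile of the 10 genes was 49.8 in LZ, 51.6 in P and 60.8 in D. The median of their changes was 2.599 points from LZ to P and -6.57 points from P to D (0.041 and 1.10 over all genes called in all 3 lists). The gene percentile of 7 of the 10 was higher in P than in LZ (50.1% of all genes called in all 3 lists) and that of 3 was lower (49.8%). From P to D, 5 were higher (52.8%) and 5 were lower (47.2%). All 5 of these were lower by over 10 points (27.7%), and 2, Supt4a and Nelfe, by over 25 points (11.2%). None was lower by over 50 points (1.94%). Nelfa (31.0 points), Hexim1 (25.7) and Cdk9 (10.7) were higher by over 10 points. For Cdk9 the highest peak in D was another one, 425 bp from its nearest start. By the peak used in LZ and P, Cdk9 was lower in D than in P and outside the top 25% in D (list percentile 73.4). From LZ to P, 2 genes moved by over 10 points (52.4%). With 10 genes and no replicate, these counts describe the list and were not tested.

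**Figure D2:**
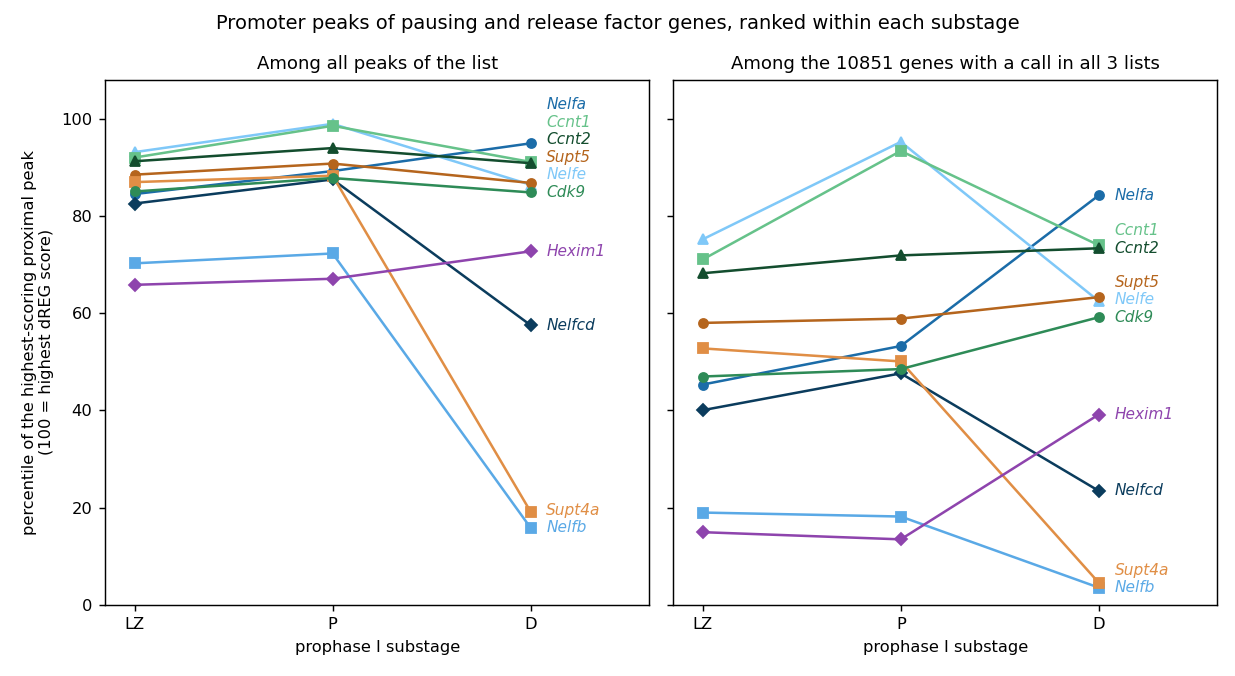
Percentile of the highest-scoring proximal peak of each of the 10 genes in LZ, P and D, among all peaks of the list (left) and among the genes called in all 3 lists (right), where each point is 1 gene in 1 pooled list and 100 is the highest score. From P to D the lines of Supt4a, Nelfe, Nelfcd, Ccnt1 and Nelfb go down in the right panel, and those of Nelfa and Hexim1 go up.

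Of the NELF genes, Nelfa, which encodes a subunit that contacts Pol II, had the highest rank in D. Its highest proximal peak scored 1.075 in LZ, 1.112 in P and 1.108 in D, at list percentiles 84.5, 89.2 and 94.9. Its gene percentile went from 45.3 to 53.2 and 84.2, and the change of 31.0 points from P to D was as large as or larger than that of 94.2% of the genes. The other 3 NELF genes were lower in D than in P. Nelfe, which encodes the RNA-binding subunit, had the highest rank of all 10 genes in P. Its highest peak scored 1.22 in LZ, 1.33 in P and 0.952 in D, at list percentiles 93.1, 98.9 and 86.4, and in P it ranked 724 of 68352 peaks. The gene percentile of Nelfe was 75.2 in LZ, 95.2 in P and 62.5 in D. Its start at 34850391 on chromosome 17 lies 181 bp from that of Skiv2l, which is transcribed the other way, and one peak covered the Nelfe start in each list (34849981 to 34850630 in P), so the initiation of both genes cannot be told apart in these strandless calls.

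Nelfcd encodes the subunit that links NELF-A to NELF-B, and it had a single proximal peak in each list. That peak scored 1.04 in LZ, 1.08 in P and 0.597 in D, at list percentiles 82.5, 87.5 and 57.5 and gene percentiles 40.0, 47.6 and 23.4. It ran from 174415571 to 174416050 of chromosome 2 in P and from 174415461 to 174415930 in D, and both of its protein-coding starts were inside it in every list. No other gene had a TSS under 1000 bp from it. Nelfb was the lowest of the 10 genes in D. Its highest peak scored 0.828 in LZ and 0.825 in P, at list percentiles 70.2 and 72.3 (45.2 and 50.9 with lists of equal length). It covered a protein-coding start at 25210726 of chromosome 2. A separate peak over the upstream start at 25211489 scored 0.436 in LZ and 0.379 in P, at list percentiles 30.3 and 21.5. In D neither of these 2 starts lay inside a peak, and the single peak left, from 25210841 to 25211150, lay between them, 115 bp from the nearer one, with a score of 0.339 and list percentile 15.8. The other protein-coding start, at 25203921 inside the gene, had no peak under 1000 bp in any list. The gene percentile of Nelfb was 18.97 in LZ, 18.2 in P and 3.54 in D.

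The DSIF genes parted in D. Supt5 encodes the large subunit, which stays with Pol II through elongation. Its highest peak scored 1.145 in LZ, 1.139 in P and 0.958 in D, at list percentiles 88.5, 90.8 and 86.8, and its gene percentile was 58.0, 58.9 and 63.3. The lower list percentile of Supt5 in D than in P turned with list length, since with each list limited to its 38603 highest-scoring peaks it was 83.6 in P and 86.8 in D. The same held for Cdk9 (78.4 and 84.8) and Ccnt2 (89.3 and 90.8). Supt5 had 4 proximal peaks in every list. Supt4a encodes the small subunit that pairs with SPT5. The peak over its start scored 1.118 in LZ and 1.095 in P, at list percentiles 86.9 and 88.3, and 0.353 in D, at list percentile 19.2. Its gene percentile was 52.7 in LZ, 50.1 in P and 4.55 in D. The fall of 45.5 points from P to D was equalled or exceeded by 2.77% of the genes. The peak was shorter in D, from 87737161 to 87737600 of chromosome 11 (440 bp), against 87737161 to 87737840 in P (680 bp), so that its end moved from well inside the gene to just past the start. A flanking peak upstream, from 87736731 to 87737140 in P with list percentile 52.0, had no counterpart in D. No start of another gene lay under 1000 bp from the Supt4a peaks.

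Of 4 spermatogonium markers, Gfra1 was called in no list. Of the 3 called in every list, 2 had a lower gene percentile in D than in P (47.2% of all genes called in all 3 lists). The remaining 1 had a higher one (52.8%). Kit, the stem cell factor receptor, had gene percentiles of 39.4 in LZ, 35.8 in P and 3.83 in D, and Dmrt1, a transcription factor of spermatogonia, had 44.6, 44.4 and 3.02. Zbtb16, a factor of undifferentiated spermatogonia, had 20.1, 20.98 and 31.3. Of the 5 spermatid markers called, 3 were higher in D than in P (52.8%). These were Tnp1, with 30.6 in P and 72.8 in D, and Prm1 and Prm2, which share 1 peak, with 4.69 and 37.9. Acrv1 and Tssk6 were lower, with 91.5 and 65.2 and with 23.96 and 6.06. Whether other cells in the fractions had a part in the ranks of Supt4a, Nelfb, Nelfcd and Nelfe was not tested.

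By their highest peak, the P-TEFb genes ranked above the middle of the genes in D. Cdk9 encodes the kinase. Its highest peak scored 1.08 in LZ, 1.09 in P and 0.927 in D, at list percentiles 85.0, 87.8 and 84.8, with gene percentiles of 47.0, 48.5 and 59.1, but it was not the same peak throughout. In LZ and P it was the one over the protein-coding start at 32712784 of chromosome 2, which in D scored 0.768 at list percentile 73.4. In D the highest was the most upstream of 4 peaks, from 32713501 to 32713910, 425 bp from the nearest Cdk9 start. The score of 0.768 lies between the highest scores in D of Hexim1 (0.758) and of Mepce, a 7SK particle gene (0.833). Their gene percentiles in D were 39.1 and 47.9, so by that peak Cdk9 stood below the middle and below its 48.5 in P. The precursors Mir2861 and Mir3960 lie inside the Cdk9 promoter on the same strand, so their initiation is not separable from that of Cdk9.

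Ccnt1 and Ccnt2 encode the cyclins T1 and T2. The highest Ccnt1 peak scored 1.20 in LZ, 1.31 in P and 1.03 in D, at list percentiles 92.0, 98.5 and 91.1, and its gene percentile was 71.0, 93.4 and 74.0. The gain of 22.3 points from LZ to P was the largest of the 10 genes. This peak covered the downstream start at 98567636 of chromosome 15 in each list (98567521 to 98568340 in P). The upstream start at 98570923 went the other way: the peak over it scored 1.19 in LZ (98570511 to 98571400) at list percentile 91.4 and 0.752 in P (98570581 to 98571250) at list percentile 66.9, and in D no peak lay under 1000 bp from it. The start of 4930415O20Rik, a protein-coding gene on the other strand, lies 81 bp away, and the calls do not tell which of the 2 genes the peak belonged to. Ccnt2 scored 1.19, 1.20 and 1.03 at list percentiles 91.2, 93.9 and 90.8 and had gene percentiles of 68.2, 71.9 and 73.3, and its highest peak covered the single protein-coding start in every list. Antisense transcripts start 72 bp from Ccnt2 (2900009J06Rik) and 221 bp from Ccnt1 (9330020H09Rik). The highest Ccnt2 peak also covered the 2900009J06Rik start in every list, so the initiation of Ccnt2 and 2900009J06Rik cannot be told apart.

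Hexim1, which encodes the inhibitor, had the lowest gene percentile of the 10 in LZ and P and was higher in D. The peak over its only start scored 0.765 in LZ, 0.754 in P and 0.758 in D, at list percentiles 65.8, 67.1 and 72.7. With lists of equal length the list percentiles of Hexim1 were 37.0, 41.7 and 72.7. Its gene percentile was 14.9 in LZ, 13.5 in P and 39.1 in D, a change from P to D as large as or larger than that of 90.4% of the genes. The peak ran from 103115861 to 103116560 of chromosome 11 in P and from 103115841 to 103116550 in D.

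**Figure D3:**
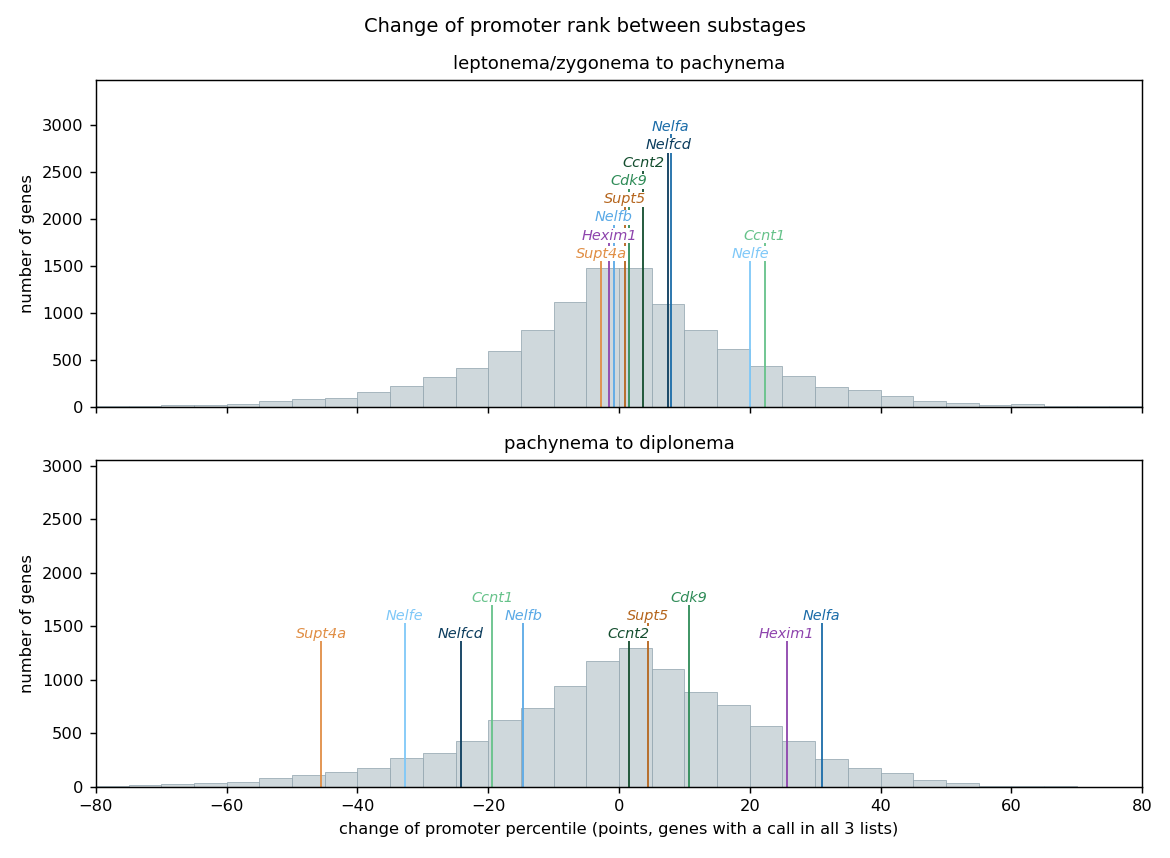
Change of gene percentile, in points, from LZ to P (top) and from P to D (bottom) for the 10 genes (coloured lines, their height has no meaning) over the distribution of the 10851 genes called in all 3 lists (grey bars, 5-point bins, number of genes on the y axis, changes beyond 80 points not drawn). From LZ to P the changes lie between -2.68 and 22.3 points, and from P to D between -45.5 (Supt4a) and 31.0 (Nelfa).

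The direction of a change could depend on how the rank was made, so it was read under 7 settings of the ranked set, the TSSs and the peak taken for each gene. The settings reuse the same peaks, so they are not independent checks. Supt4a and Nelfcd were lower in D than in P in 7 of 7 settings, by 45.3 to 69.1 points and by 23.1 to 46.8 points. Nelfcd had a single proximal peak in each list and Supt4a a single one in D, so the choice of peak could not alter those scores. The fall of 69.1 points was among all peaks of the list, where the lists differ in length. Nelfa and Hexim1 were higher in D in 7 of 7, by 5.71 to 31.1 and by 5.65 to 25.7 points. Nelfe, Nelfb and Ccnt1 were lower in 6 of 7 and Cdk9 higher in 6 of 7, and Supt5 and Ccnt2 were higher in 4. With the median score of the proximal peaks in place of the highest, Nelfe was 32.3 points and Ccnt1 50.8 points higher in D than in P, and Ccnt2 was lower (-41.3). Nelfb was 1.92 points higher in D with the peak nearest to its most upstream start, and Cdk9 was lower in D (-2.96) among all peaks of the list, a setting in which the lists differ in length. From LZ to P, Nelfcd and Ccnt2 were higher in 7 of 7 settings, and Nelfe, Nelfa, Ccnt1 and Supt5 in 6. The exceptions were large for Nelfe (-44.4, median score) and Ccnt1 (-49.4, peak nearest to the upstream start) and small for Nelfa (-1.41) and Supt5 (-0.25). Cdk9 was higher in P in 5 of 7 settings, and lower with the peak nearest to the most upstream start (-15.0) and with the median score (-11.1). Supt4a was lower in P in 5 of 7 settings and Nelfb and Hexim1 in 4, and with the median score Hexim1 was 18.5 points higher.

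Peaks inside the genes, 1000 bp or more from every own start, were called only for Nelfa among the 10 genes, in each list (28.6% of protein-coding genes in LZ, 26.9% in P and 15.8% in D). In LZ it was an intronic peak of chromosome 5 from 33932461 to 33932730 with a score of 0.306, at list percentile 4.44. In P another intronic peak, near the far end of the gene, ran from 33903921 to 33904360 with a score of 0.367 at list percentile 18.8, and in D the overlapping peak ran from 33903831 to 33904320 with a score of 0.329 at list percentile 13.5. All 3 stand low in their lists. The 10 genes span 3495 to 38498 bp with a median of 11738.5 bp, and Nelfa is the longest. Protein-coding genes with a gene-body peak had median spans of 56303.5 bp in LZ, 58250 bp in P and 71464 bp in D.

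Of 38 other genes of pausing and elongation, 35 had a proximal peak in LZ (60.2% of protein-coding genes), 35 in P (60.5%) and 34 in D (51.6%). Tcea2 and Tcea3, which encode forms of the elongation factor TFIIS, and Ell3, a testis form of the elongation factor ELL, were called in none. Mllt3, an acetyl-lysine reader of the super elongation complex, was called in LZ (list percentile 78.2) and P (57.3) and not in D. In the counts that follow, shares of all genes called in all 3 lists are given in brackets. Among the 34 called in all 3, the gene percentile of 24 was higher in P than in LZ (50.1%) and that of 10 was lower (49.8%). From P to D 21 were higher (52.8%) and 13 lower (47.2%). Ell and Mnat1, singled out after their values were seen, were the only ones of these lower by over 25 points in D (11.2%). They went from gene percentile 74.5 to 49.1 and from 78.5 to 52.4.

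Groups were compared by gene percentile, with the share of all genes called in all 3 lists in brackets. All 3 genes of the 7SK particle besides Hexim1 had a higher gene percentile in D than in P (52.8%). In P 1 of them was higher than in LZ (50.1%) and 2 were lower (49.8%). Hexim2, the paralog of Hexim1, had 86.8 in LZ, 92.9 in P and 93.9 in D. Mepce, which caps the 7SK RNA, had 42.9, 18.8 and 47.9. The 5 genes of the super elongation complex called in all lists were lower in D than in P (47.2%). In P 3 of them were higher than in LZ (50.1%) and 2 were lower (49.8%). Mllt1, the ENL subunit, had gene percentiles of 84.4 in LZ, 91.9 in P and 86.9 in D. Of the 4 BET bromodomain genes, which encode readers of acetylated histones, 3 were higher in D than in P (52.8%). Brdt, the testis-specific one, was lower, with gene percentiles of 84.2, 78.5 and 66.6, and Brd3 had 20.5, 21.6 and 22.5. In P 2 of the 4 were higher than in LZ (50.1%) and 2 were lower (49.8%). Brd2 had 89.4 in LZ, 28.2 in P and 50.0 in D.

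The PAF1 complex is an elongation complex that travels with Pol II. Its 6 genes had a higher gene percentile in P than in LZ (50.1% of all genes called in all 3 lists). In D 4 of them were higher than in P (52.8%) and 2 were lower (47.2%). Rtf1 had gene percentiles of 66.3 in LZ, 77.4 in P and 99.2 in D, and Paf1 had 4.77, 8.85 and 12.8. The 6 genes of other kinases of the Pol II tail were higher in P than in LZ as well (50.1%). In D 2 of them were higher than in P (52.8%) and 4 were lower (47.2%). Cdk7, the TFIIH kinase, had 8.82, 24.5 and 23.2, and Cdk13, one of the elongation kinases, had 72.5, 78.5 and 66.2. All 3 genes of histone chaperones were lower in P than in LZ (49.8%). In D 2 of them were higher than in P (52.8%) and 1 was lower (47.2%). Ssrp1, a subunit of FACT, had 50.1, 19.8 and 10.4, and Supt6, which moves histones during elongation, had 55.9, 44.4 and 65.5. The 7 called genes of Pol II and termination had a higher gene percentile in D than in P (52.8%). In P 6 of them were higher than in LZ (50.1%) and 1 was lower (49.8%). Polr2a, the largest Pol II subunit, had gene percentiles of 15.5 in LZ, 31.0 in P and 95.8 in D, and Pcf11, a factor of cleavage and termination, had 94.1, 95.2 and 99.8.

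**Figure D4:**
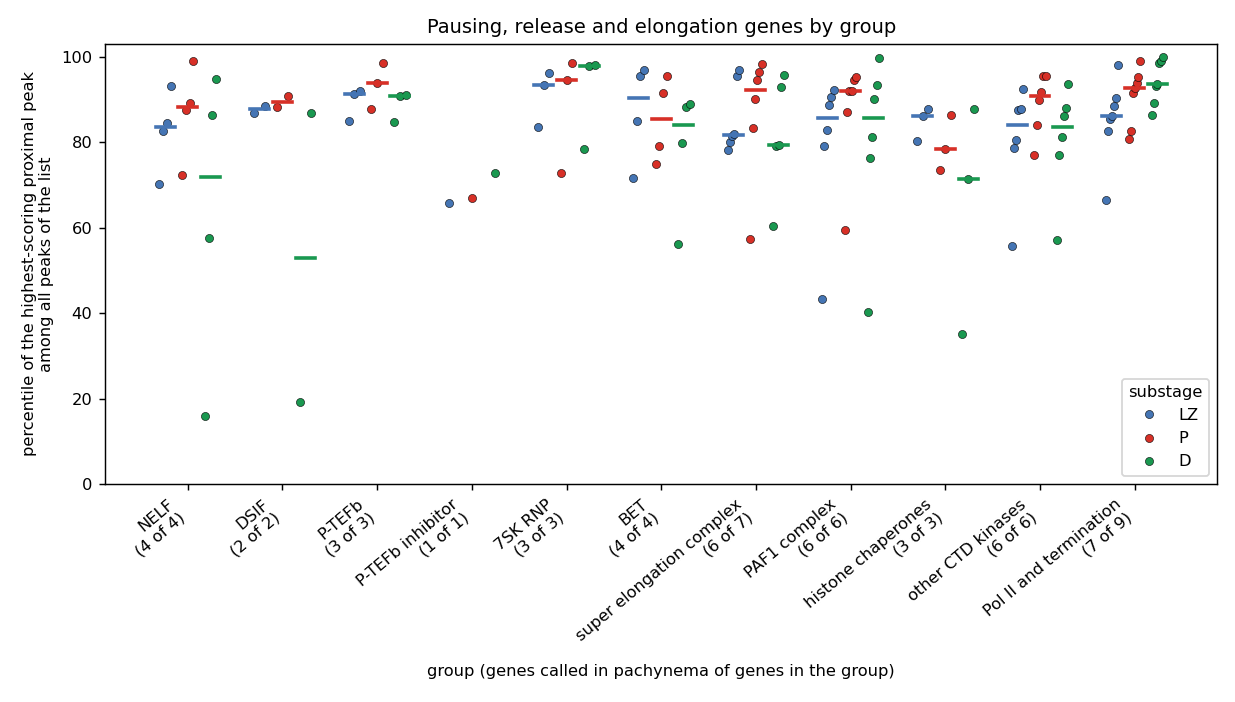
Percentile among all peaks of the list (y axis) of the highest-scoring proximal peak of the 10 genes and 38 other genes of pausing and elongation, by group (x axis, with the number called in P of the number in the group), in LZ, P and D. Each point is 1 gene in 1 pooled list and each bar is the median of a group with more than 1 gene called. The lowest points in D are Nelfb at 15.8 and Supt4a at 19.2.

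Sequence features of the promoters were not used in the choice of genes. Of the 10 genes, 8 had an entry in the RefSeq promoter table, Nelfcd and Nelfe having none, and their windows of 300 bases at the start nearest to the highest-scoring peak were described. Their median GC content was 62.7%, against 56.3% for the promoters of all 21938 protein-coding genes and 61.3% for those called in all 3 lists. They held a median of 29 CpG dinucleotides (13 over all, 22 over those called in all 3) and a median ratio of observed to expected CpG of 0.943 (0.577 and 0.793). Cdk9 had the highest GC content at 78.3% and Nelfb the lowest at 55.0%. For Nelfb this window belongs to a start inside the gene (25210700), not to the upstream one printed above, and for Ccnt1 it starts from 98567680, close to the printed downstream start.

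GGGCGG was in 7 of the 8 windows (46.1% of all protein-coding promoters and 64.1% of those called in all 3 lists), with Nelfb as the exception. CCAAT was in 4 (38.4% and 38.9%), those of Nelfa, Cdk9, Ccnt2 and Hexim1. GGAAGT was in 5 (25.04% and 28.2%) and TGACG in 3 (24.3% and 34.7%), which were Supt5, Supt4a and Ccnt1. CAGTTG was in 1 (12.3% and 10.6%), Hexim1. TATAAA on the strand of the gene, 40 to 21 bases before the start, was in none of the 8 (2.18% and 0.654%). The shorter TATAA, added after the sequences were seen, was in that stretch of Hexim1 alone (3.80% of all promoters and 1.19% of those called in all 3 lists).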

How the data were processed

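Nascent RNA was profiled by leChRO-seq in 12 libraries, 4 per prophase I substage. The authors removed PCR duplicates, trimmed adapters with cutadapt, mapped reads with BWA to mm10 and called peaks with dREG on pooled libraries (the submitters' notes also name bedtools). The deposited lists give the position of each peak, a dREG score with no fixed range and a p-value, none above 0.05. They hold no read counts, and the depth of the pooled lists is not known from them. Library-level normalization factors and an overall range of mapped reads are stated in the paper and were not used here. The paper describes paired-end sequencing and the labels single-end.

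The 10 genes and the lists of pathway and marker genes were chosen with earlier results of these data known. A peak was assigned to a gene when its edge was under 1000 bp from any GENCODE M21 TSS of that gene (0 when inside), and ranks were made on the highest score per gene. All 10 genes were named. From the 38 others, those with mixed or no calls and the highest and lowest of each group in pachynema were named. Ell, Mnat1 and Brd2 were added after their values were seen. Distances and ranks were checked on simulated data. Python 3.11.15, numpy 2.4.6, pandas 2.3.3, pysam 0.24.0 and matplotlib 3.10.9 were used. Alternatives are listed at the end, of which TATAA was added after seeing the data. The study's ATAC-seq and other assays were not used here.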

Additional observations from a re-analysis of the deposited data

How the results depend on the processing

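No paired analysis was possible because the 4 libraries of a substage were pooled into 1 list, and so no library could be dropped and no error between libraries can be given. A peak that is not called may lie under the depth of its list, and the D list is shorter. Under the alternatives of distance, score, p-value, list length and TSSs, all 10 genes stayed called in LZ and in P, and 8 to 10 in D. Peaks counted per list were fewer with the TSS inside the peak (15 in LZ, 14 in P, 11 in D), with adjoining peaks joined (13, 13 and 12), with a score of at least 0.5 (19 in LZ, 14 in D) and with lists of equal length (17 in LZ). No gene kept a gene-body peak (0) with a score of at least 0.5 in any list, nor with a p-value of at most 0.01 or equal list lengths in LZ and P. The median percentile of the 10 genes was 83.1, 85.0 and 82.0 in LZ, P and D when ranked among proximal peaks, 57.8, 60.2 and 62.4 among genes called in the list, 85.7, 87.9 and 72.0 for the peak nearest to the most upstream TSS, and 74.2 in LZ and 80.1 in P with lists of equal length. Of the 10 genes, 4 were higher in P than in LZ with the peak nearest to the most upstream TSS, 10 among all peaks of a list and 9 among all genes called in it. Among all peaks of a list 2 genes, and among all genes called in it 3, were higher in D than in P, but these rankings use lists of unequal length. With lists of equal length Nelfa, Supt5, Cdk9, Ccnt2 and Hexim1 were higher in D, as by gene percentile. CCAAT was in 1 window from 100 bp before to 100 bp after the TSS and in 2 around the peak centre in P, where the median GC content was 66.9%, and CAGTTG was in 2 around the TSS. TATAA in place of TATAAA was in 1. The cause of the other differences was not tested. The other alternatives changed no count by over 1.5 times.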
